A study of Rattus norvegicus with 35 samples.

Results

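Liver miRNAs after 7 days of ketoconazole at the low dose were compared with those after 3 and 14 days at the same dose, in 9 of the 35 libraries of the study. Ketoconazole is an azole antifungal drug that can injure the liver, and the study looked for miRNA marker candidates of that injury. The 9 libraries were taken by their labels, 3 for each of the 3 days, and the value compared was day 7 against the mean of the day 3 and day 14 groups, with no control in the contrast. All the rats were male Sprague-Dawley, 6 weeks old, and those of the 9 libraries were given the drug by mouth at 10 mg/kg per day, with livers taken 24 h after the last dose. The same contrast of days was also computed in vehicle rats (0.5% methylcellulose, 8 libraries, with 2 on day 14), at the middle dose (30 mg/kg, 9 libraries) and at the high dose (100 mg/kg, 9 libraries). Replicates carry numbers only, with nothing to show that they are different animals, and p-values here therefore speak of the spread among the libraries as labelled.

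miRNAs are short RNAs that pair with messenger RNAs, mostly through a seed near their 5′ end (bases 2 to 8), and lower their translation and stability. Each is cut from a hairpin that can yield a product from either arm, named 5p and 3p; usually the guide arm is abundant and the passenger arm scarce. In liver, hepatocytes hold most of the miRNA, with miR-122, miR-192 and miR-22 among the most abundant, while endothelial, stellate, bile duct and blood cells bring miRNAs of their own. miR-122-5p, the miRNA that marks hepatocytes, was at 31159 to 40316 CPM (reads of a miRNA scaled to a common library total, with library sizes scaled by TMM, a method that equalises the bulk of miRNAs between libraries) in the 9 libraries. Of 763 miRNAs in the deposited table, 215 had 0 counts in all 9 low dose libraries and 328 passed the filter on low counts and were tested.

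The mature sequences of the miRNAs that moved most are shown first because several of them share a seed. They come from RefSeq (rat assembly GRCr8), where 292 of the 328 tested names matched, and the seed is in capitals. These were higher on day 7, each with a mean of at least 10 CPM over the 9 libraries and with all 3 day 7 libraries above the other 6; miR-423-3p also belongs to them.
miR-22-5p: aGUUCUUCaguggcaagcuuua
miR-128-3p: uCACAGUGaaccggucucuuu
miR-191a-5p: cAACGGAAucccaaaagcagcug
miR-145-5p: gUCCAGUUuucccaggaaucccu
miR-322-3p: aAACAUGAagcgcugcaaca
miR-365-3p: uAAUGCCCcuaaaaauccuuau
miR-193b-3p: aACUGGCCcacaaaguccc
miR-193a-3p: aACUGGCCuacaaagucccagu
miR-671: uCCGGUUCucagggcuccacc
miR-222-3p: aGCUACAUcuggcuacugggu
miR-28-3p: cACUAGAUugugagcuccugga
miR-193a-3p and miR-193b-3p carry the same seed. The next were lower on day 7 under the same conditions, together with miR-99a-5p, miR-200b-3p and miR-200a-3p.
miR-6329: aAUGUGACucagcuaucugaaca
miR-532-5p: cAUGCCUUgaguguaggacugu
miR-181c-3p: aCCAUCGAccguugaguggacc
miR-181a-1-3p: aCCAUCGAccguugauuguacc
miR-3559-5p: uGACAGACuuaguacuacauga
miR-3559-3p: aUGUAGUAcugagucugucgug
miR-101a-3p: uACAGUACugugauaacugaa
miR-25-3p: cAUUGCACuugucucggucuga
miR-101b-3p: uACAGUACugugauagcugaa
Here miR-101a-3p and miR-101b-3p share a seed, as do miR-181c-3p and miR-181a-1-3p. The last pair is shown because one is the other arm of the miR-22 hairpin and the other has the seed of miR-25-3p but moved the opposite way; the second was chosen after its values were seen.
miR-22-3p: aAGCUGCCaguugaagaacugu
miR-92a-3p: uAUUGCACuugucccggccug

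The low dose libraries held 3434082 to 4291752 counts each, and the replicate pairs within a day differed by far more than counting noise (chi-square per degree of freedom 41.0 to 258). The first principal component over all 35 libraries carried 46.2% of the variance of log2 CPM, and on it the 3 day 7 libraries scored 4.24 to 4.67 and the 6 others of the low dose -9.65 to -4.32. The middle and high dose libraries, at 4.70 to 6.47, lay on the side of day 7, and the 8 vehicle libraries, at -14.49 to -5.33, on the other. Among the 9 low dose libraries alone, the first component carried 53.7%, with day 7 at 8.99 to 9.41 and the others at -6.94 to -2.67. The labels name no batch, so day 7 at this dose and whatever else its 3 libraries share cannot be told apart.

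Day 7 differed from days 3 and 14 in 99 of the 328 miRNAs tested (30.2%; edgeR's quasi-likelihood test, Benjamini-Hochberg adjusted p under 0.05), 74 of them higher (22.6%) and 25 lower (7.62%). The 12 rises and 12 falls named below from the largest changes were picked to have day 7 beyond the other 6 libraries. Their lack of overlap is therefore given by the choice. The largest rise on day 7 was that of miR-22-5p, the scarce arm of a hairpin whose other arm, miR-22-3p, is among the most abundant miRNAs of these livers. miR-22-5p stood at 155, 131 and 162 CPM in the 3 day 7 libraries, at 11.8, 18.6 and 14.7 on day 3 and at 16.1, 18.4 and 15 on day 14. No day 7 library came near the others, and the change was 3.24 ± 0.19 (log2 fold change ± SE, edgeR quasi-likelihood test on all 35 libraries, 23 residual degrees of freedom; adjusted p = 4.04e-15), a 9.43-fold rise. miR-22-3p stood at 221520.0, 201150.0 and 213625 CPM in the 3 day 7 libraries, at 137464, 163646 and 155253 on day 3 and at 145701, 168780.0 and 167619 on day 14. The groups of miR-22-3p did not overlap either, yet its rise was 0.44 ± 0.09 (edgeR adjusted p = 0.000195). Its share of all counts was 20.9% on day 7 against 16.4% on day 3 and 16.6% on day 14 (means, n = 3 each).

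miR-191a-5p, cut from an intronic hairpin that lies beside miR-425, was the most abundant of the strong risers. miR-191a-5p stood at 10876, 10215 and 10329 CPM in the 3 day 7 libraries, at 1206, 2112 and 1744 on day 3 and at 1241, 1476 and 1269 on day 14. All 3 day 7 libraries stood several fold above the highest of the others. That is a 6.99-fold rise, of 2.81 ± 0.15 on the log2 scale. miR-28-3p, from an intron of Lpp, behaved alike among the abundant miRNAs. miR-28-3p stood at 2628, 2548 and 2520.2 CPM in the 3 day 7 libraries, at 480.3, 879 and 646 on day 3 and at 539, 621 and 573 on day 14. Here too the day 7 libraries did not overlap the rest. Its rise was 2.05 ± 0.15. In both hairpins the other arm did not pass the test: miR-191a-3p was at -0.20 ± 0.15 (adjusted p = 0.37, edgeR) and miR-28-5p at 0.04 ± 0.10 (adjusted p = 0.786, edgeR). The neighbours miR-425-5p (-0.01 ± 0.11) and miR-425-3p (0.01 ± 0.20) did not pass, nor did the miR-28 relatives miR-151-3p (0.32 ± 0.13) and miR-151-5p (0.07 ± 0.11); both arms of miR-708 were too scarce to be tested. So 1 of 4 tested members of the list of miR-191 and miR-425 arms and 1 of 4 of the list of miR-28, miR-151 and miR-708 arms rose, a share near the 22.6% of all miRNAs tested.

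All 4 tested members of the miR-193 and miR-365 clusters rose, miRNAs known from brown fat and from their restraint of tumour growth. miR-193a-3p stood at 4411, 4213 and 3538 CPM in the 3 day 7 libraries, at 708, 1114 and 892 on day 3 and at 681, 864 and 914 on day 14. miR-365-3p stood at 192, 209 and 212 CPM in the 3 day 7 libraries, at 25.7, 60.3 and 52.3 on day 3 and at 21.5, 38.4 and 34.6 on day 14. miR-193b-3p stood at 114, 88.9 and 99.2 CPM in the 3 day 7 libraries, at 17.2, 30.5 and 24.7 on day 3 and at 13.4, 17.9 and 17.7 on day 14. In each of the 3, which were picked for no overlap, every day 7 library lay far above the highest of the others. The rises were 2.24 ± 0.17 for miR-193a-3p, 2.42 ± 0.23 for miR-365-3p and 2.34 ± 0.21 for miR-193b-3p. miR-193a-5p, the scarce arm, was at 3.58, 6.63 and 6.54 CPM on day 7 against 1.12 to 3.50 in the other 6, and rose by 1.24 ± 0.36. This last call was lost without day 7 replicate 2 (1.09). The list's median was 2.29, against 0.075 over all 328 miRNAs tested, of which 22.6% rose.

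miR-222-3p and miR-221-3p, neighbours with a common seed that repress the cell cycle inhibitor p27, both rose. miR-222-3p stood at 32.5, 34.3 and 48.9 CPM in the 3 day 7 libraries, at 6.92, 13.3 and 11.2 on day 3 and at 7.91, 8.01 and 7.66 on day 14. miR-221-3p stood at 90.6, 107 and 187 CPM in the 3 day 7 libraries, at 44.7, 62.9 and 70.9 on day 3 and at 47.5, 61.7 and 66.5 on day 14. All day 7 libraries were above the other 6 for both, and day 7 replicate 3 was the highest for each. The rises were 2.08 ± 0.22 and 1.12 ± 0.24, while miR-221-5p (-0.24 ± 0.43) did not pass. So 2 of the 3 tested members of the pair's hairpins rose, against 22.6% of all miRNAs tested.

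miR-128-3p, best known from neurons, was a scarce miRNA on all 3 days. miR-128-3p stood at 65.8, 59.9 and 54 CPM in the 3 day 7 libraries, at 4.91, 11.2 and 11 on day 3 and at 5.73, 7.47 and 7.13 on day 14. Every day 7 library lay above the 6 others. Its rise was 2.93 ± 0.27, a 7.64-fold change. miR-145-5p stood at 600.2, 645 and 656 CPM in the 3 day 7 libraries, at 64.5, 118 and 86.6 on day 3 and at 88.9, 106 and 103 on day 14. miR-145 is the classic smooth muscle miRNA, and in this arm day 7 lay above both other days without overlap. It rose by 2.75 ± 0.19, whereas miR-145-3p (-0.28 ± 0.16) did not pass. miR-322-3p stood at 133, 150.0 and 132 CPM in the 3 day 7 libraries, at 19.7, 28.2 and 21.7 on day 3 and at 20.5, 23.8 and 14.8 on day 14. Day 7 was again above both other days in every library. The rise of miR-322-3p was 2.70 ± 0.16; its partner arm miR-322-5p, which has the seed of miR-16, was at 0.26 ± 0.12 (edgeR adjusted p = 0.0837).

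Both arms of miR-423, a widely expressed miRNA, rose. miR-423-3p stood at 526, 524 and 489 CPM in the 3 day 7 libraries, at 62.5, 129.7 and 88.2 on day 3 and at 75.5, 90.5 and 76.8 on day 14. The day 7 libraries were the 3 highest. miR-423-3p rose by 2.56 ± 0.20 and miR-423-5p by 1.80 ± 0.17. miR-671 stood at 74.4, 63.3 and 57.1 CPM in the 3 day 7 libraries, at 8.49, 20.5 and 15.6 on day 3 and at 13.9, 17.6 and 11.6 on day 14. Its day 7 libraries too were the 3 highest. miR-671 rose by 2.15 ± 0.23. Over the 12 rises named from the largest changes, adjusted p in edgeR ran from 2.82e-16 to 2.74e-09. In miR-423-3p and miR-671, as in the other 10 miRNAs of this set, day 3 replicate 1 was the lowest of the 3 day 3 libraries, so the 6 comparison libraries were not alike among themselves.

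**Figure D1:**
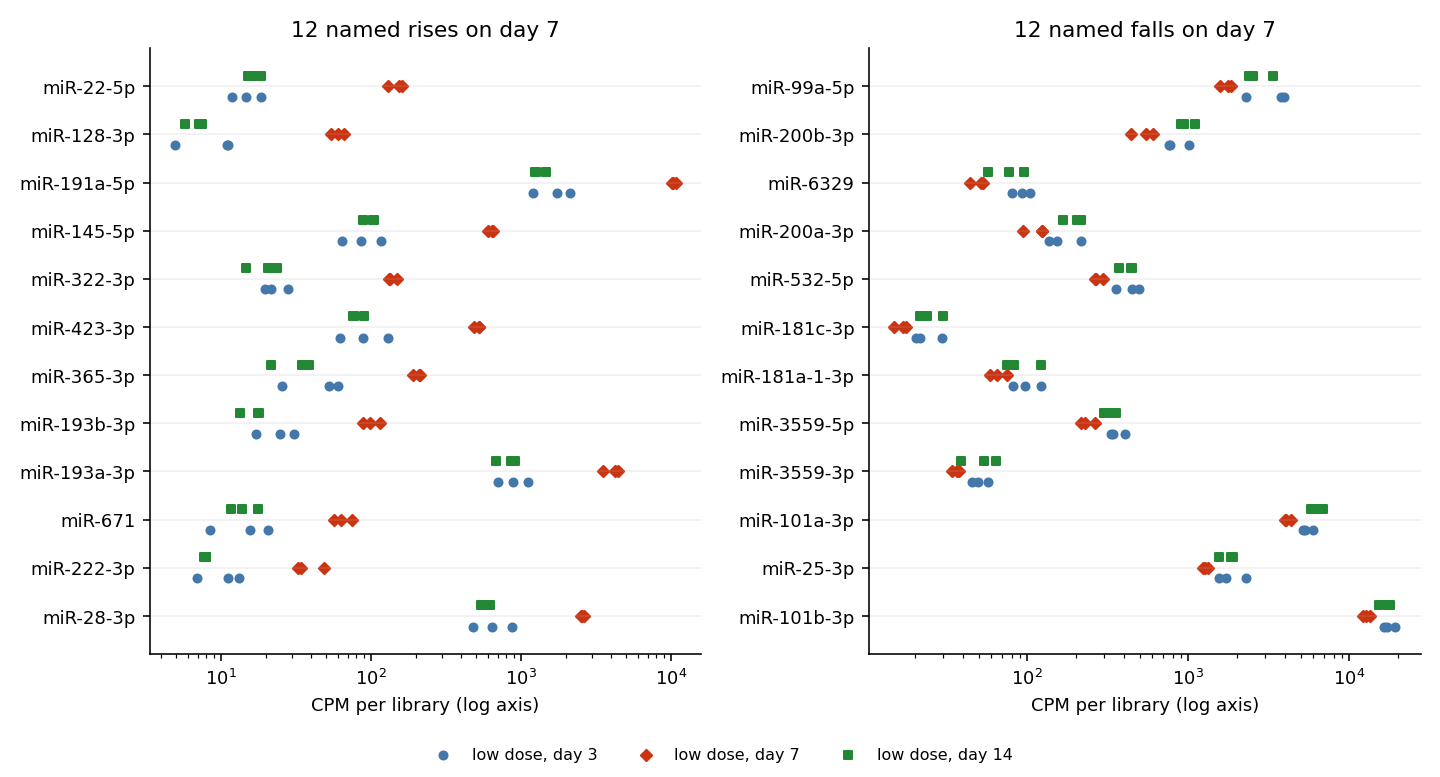
CPM of each low dose library (log axis) for the 12 named rises, left, and the 12 named falls, right; each point is 1 library, coloured by day. The day 7 points lie beyond all 6 others in every row, as the naming rule requires, by more than 2-fold on the left and by a small margin on the right.

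The falls were smaller than the rises. miR-99a-5p, which represses mTOR and shares a hairpin cluster with let-7c, fell most among the 12 named falls that were picked for no overlap. miR-99a-5p stood at 1758, 1852 and 1583 CPM in the 3 day 7 libraries, at 2303, 3774 and 3917 on day 3 and at 2401, 3371 and 2523 on day 14. It fell by 0.81 ± 0.19 (edgeR adjusted p = 0.00109). Day 7 lay below all 6 others, with day 3 replicate 1 and day 14 replicate 1 nearest to it. miR-125b-5p, of an allied family, was called lower, at -0.46 ± 0.15, a call that was lost without day 7 replicate 1 (-0.43) or 3 (-0.44).

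miR-200b-3p and miR-200a-3p, products of one cluster that keeps epithelial cells epithelial by repressing Zeb1 and Zeb2, both fell. miR-200b-3p stood at 439, 548 and 603 CPM in the 3 day 7 libraries, at 1017, 755 and 775 on day 3 and at 1102, 905 and 942 on day 14. miR-200a-3p stood at 94.4, 123 and 123 CPM in the 3 day 7 libraries, at 215, 136 and 152 on day 3 and at 217, 168 and 205 on day 14. For each, all day 7 libraries lay below the other 6. The changes were -0.79 ± 0.20 and -0.68 ± 0.18. They mark bile duct cells in liver, and the other tested members were at values that did not pass, with miR-200a-5p at -0.71 ± 0.29 and miR-141-3p at -0.62 ± 0.28. With 2 of 7 tested members lower and 0 higher, against 7.62% and 22.6% of all miRNAs tested, the list had a median of -0.62. With DESeq2's size factors 4 were lower, where 53 of all 328 were. The summed level of the 9 miR-200 members was 691 to 924 CPM on day 7, 1074 to 1537 on day 3 and 1273 to 1565 on day 14, so the groups did not overlap. In whole liver, fewer cells of a type and less miRNA per cell cannot be told apart.

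miR-101a-3p and miR-101b-3p, which share a seed and repress the histone methyltransferase Ezh2, fell together. miR-101a-3p stood at 3971, 4077 and 4353 CPM in the 3 day 7 libraries, at 5929, 5203 and 5293 on day 3 and at 6901, 5789 and 6197 on day 14. miR-101b-3p stood at 12797, 12278 and 13425 CPM in the 3 day 7 libraries, at 19415, 16584 and 17256 on day 3 and at 17459, 15388 and 17898 on day 14. The day 7 libraries were the 3 lowest for both. The changes were -0.51 ± 0.13 and -0.43 ± 0.12. miR-25-3p stood at 1279.7, 1333 and 1244 CPM in the 3 day 7 libraries, at 2283, 1548 and 1716 on day 3 and at 1837, 1557 and 1901 on day 14. The day 7 libraries lay below all others. miR-25-3p, from the proliferation-linked miR-106b cluster in an intron of Mcm7, fell by 0.49 ± 0.13.

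Passenger arms of the miR-181 hairpins, a family active in lymphocytes and endothelium, were called lower. miR-181c-3p stood at 14.8, 16.9 and 17.6 CPM in the 3 day 7 libraries, at 29.5, 20.3 and 21.5 on day 3 and at 30.0, 23.8 and 21.6 on day 14. miR-181a-1-3p stood at 58.6, 64.9 and 75 CPM in the 3 day 7 libraries, at 122, 82.2 and 97.3 on day 3 and at 121, 75.3 and 82.9 on day 14. The changes were -0.57 ± 0.18 and -0.55 ± 0.16, and margins were narrow: the lowest day 14 library of miR-181a-1-3p lay next to the highest day 7 library. The first call was lost without day 3 replicate 1 (-0.48) or day 7 replicate 1 (-0.50) and the second without day 7 replicate 1 (-0.47). miR-181a-2-3p was at -0.52 ± 0.18, miR-181b-1-3p at -1.39 ± 0.46 and miR-181b-2-3p at -1.74 ± 0.61, all called lower as well; the last 2 are scarce miRNAs chosen after their values were seen. Each of these 3 calls was lost without at least 2 single libraries: miR-181a-2-3p without day 3 replicate 1 (-0.48), day 7 replicate 2 (-0.47) or 3 (-0.44), miR-181b-1-3p without day 3 replicate 1 (-1.17) or day 7 replicate 3 (-1.15), and miR-181b-2-3p without day 3 replicate 1 (-1.59), day 7 replicate 1 (-1.36) or 2 (-1.50). The abundant guide arms, such as miR-181a-5p (-0.24 ± 0.10) and miR-181b-5p (-0.20 ± 0.11), did not pass.

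miR-532-5p stood at 262, 269 and 294 CPM in the 3 day 7 libraries, at 497, 356 and 450.1 on day 3 and at 439, 371 and 451 on day 14. Its day 7 libraries were the 3 lowest. miR-532-5p, from an X-linked cluster in an intron of Clcn5, fell by 0.63 ± 0.17. miR-6329 stood at 51.7, 53.3 and 44.3 CPM in the 3 day 7 libraries, at 104, 92.9 and 80.0 on day 3 and at 95.4, 57.1 and 77.1 on day 14. For miR-6329 the day 14 replicate 2 library, the lowest of the 6, was close to day 7, and the change was -0.75 ± 0.19. miR-3559-5p stood at 264, 215 and 229 CPM in the 3 day 7 libraries, at 403, 332 and 342 on day 3 and at 301, 326 and 355 on day 14. Day 7 lay below both other days. Both arms of miR-3559 fell, with -0.54 ± 0.15 for miR-3559-5p and -0.51 ± 0.18 for miR-3559-3p. Over the 12 falls named from the largest changes, adjusted p in edgeR ran from 0.00109 to 0.0279. The call for miR-3559-3p was lost without day 3 replicate 1 (-0.47) or any 1 of the day 7 libraries (-0.54 to -0.48).

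Of the 99 calls over the whole table, 39 were at least 2-fold higher and 5 at least 2-fold lower. The 74 count 1 product with the same mature sequence under both of its names, let-7a-1-3p and let-7c-2-3p, which had equal values. All 3 day 7 libraries lay above the other 6 for 79 miRNAs (24.1%) and below them for 27 (8.23%), together 106 (32.3%). How the calls split depended on the scaling. DESeq2's size factors put 58 higher and 53 lower, library size alone 62 and 44, and TMM factors averaged over every library as reference 62 and 45; the last was added after the data were seen. The median change over all 328 was 0.0754 in the TMM fit and -0.0745 with DESeq2's size factors, a shift that applies to all miRNAs alike. No called miRNA changed direction under any of them. Of the 74 higher calls, 54 held under each alternative that tested them and without each single library, as did 10 of the 25 lower calls; let-7e-3p and miR-664-3p, among the 54, were too scarce for the filter of 10 CPM and were not tested there. The lower count was 16 without day 3 replicate 1 or day 7 replicate 1, 49 without day 14 replicate 1, 50 without day 14 replicate 2 or day 3 replicate 2, and 46 without day 14 replicate 3.

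**Figure D2:**
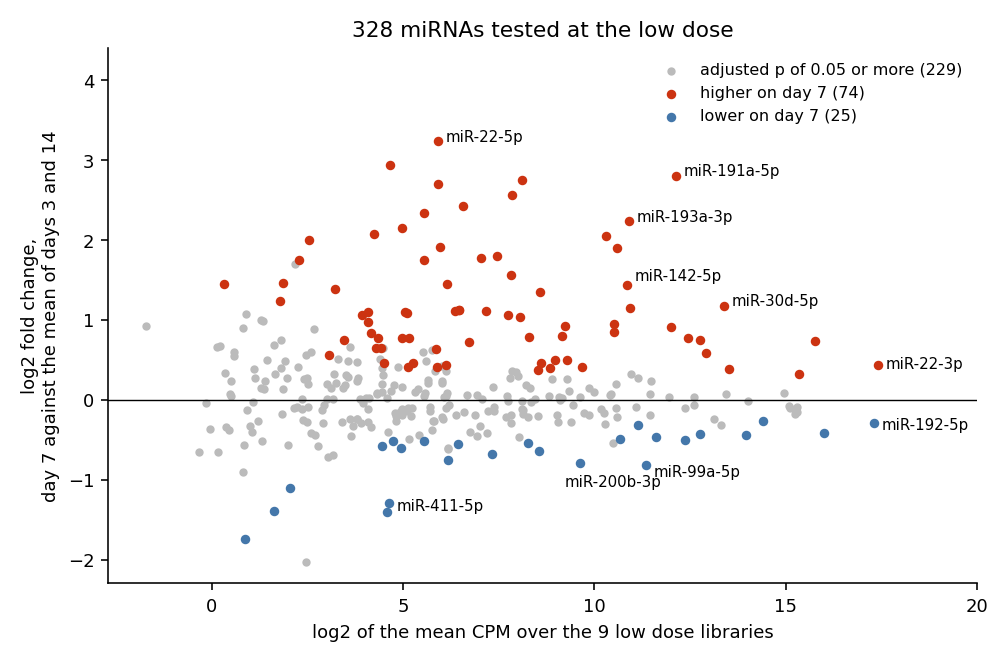
Each point is a tested miRNA, with log2 of its mean CPM over the 9 low dose libraries on the x axis and the log2 fold change of day 7 against the mean of days 3 and 14 on the y axis. Rises reach 3.24 and are found across the range of abundance, while falls beyond -1 are found only among scarce miRNAs.

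Hepatocyte miRNAs were split. Of 14 tested members of the hepatocyte-abundant list, 5 rose and 3 fell, where 22.6% of all miRNAs tested rose and 7.62% fell. The list had a median of 0.07 against 0.075 over all miRNAs tested. With DESeq2's size factors 3 rose, 3 fell and the median was -0.08. miR-148a-5p stood at 3083, 2894 and 3299 CPM in the 3 day 7 libraries, at 1217, 1816 and 1559.7 on day 3 and at 1146, 1374 and 1285 on day 14. The day 7 libraries were the 3 highest. The rise of miR-148a-5p was 1.15 ± 0.17. miR-802-5p stood at 2174, 2305 and 1996 CPM in the 3 day 7 libraries, at 887, 1699 and 1047 on day 3 and at 859, 1274 and 978 on day 14. miR-802-5p, a liver miRNA tied to glucose metabolism, rose by 0.95 ± 0.21; day 3 replicate 2 was the highest of the other 6. miR-192-5p was at 145977, 139323 and 140524 CPM on day 7 against 158324 to 191755 in the others, and was called lower, at -0.29 ± 0.08 (edgeR adjusted p = 0.00705). 2 of the rises, miR-148a-3p (0.33 ± 0.12) and miR-194-3p (0.46 ± 0.17), were each lost under 8 of 9 alternatives, and miR-148a-3p without any 1 of the 9 libraries (0.16 to 0.36), miR-194-3p without any but day 7 replicate 3 (0.28 to 0.55 over all 9). miR-122-5p stood at 31159, 37464 and 32962 CPM in the 3 day 7 libraries, at 40316, 31930.4 and 33019.8 on day 3 and at 38624, 35704 and 38403 on day 14. For miR-122-5p the days overlapped, and its change was -0.10 ± 0.13 (edgeR adjusted p = 0.608).

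Of 7 tested white blood cell miRNAs, 4 rose on day 7 and 0 fell, where 22.6% of all miRNAs tested rose and 7.62% fell. The list median was 0.43 against 0.075 over all tested. With DESeq2's size factors 3 rose, where 58 of all 328 did. miR-142-5p stood at 3687, 2816 and 3044 CPM in the 3 day 7 libraries, at 1113, 1373 and 1494 on day 3 and at 1103, 1058 and 959.7 on day 14. No other low dose library reached the day 7 range. miR-142, expressed by nearly all blood cells, rose in this arm by 1.44 ± 0.18, while miR-142-3p, at 371, 291 and 308 CPM on day 7 against 239 to 329 in the others, overlapped and was at 0.19 ± 0.18 (edgeR adjusted p = 0.492; chosen after its values were seen). miR-342-3p stood at 93.4, 79.6 and 92.9 CPM in the 3 day 7 libraries, at 19.9, 29.8 and 31.3 on day 3 and at 29.2, 23.2 and 25.1 on day 14. Day 7 again did not overlap the rest. miR-342-3p rose by 1.75 ± 0.21. miR-150-5p stood at 995, 881 and 769 CPM in the 3 day 7 libraries, at 440.1, 369 and 405 on day 3 and at 588, 527 and 476 on day 14. miR-150-5p, a miRNA of mature lymphocytes, rose by 0.93 ± 0.16, with the 3 days in separate ranges. The neutrophil and macrophage miRNA miR-223-3p was at 0.43 ± 0.17 (edgeR adjusted p = 0.0499), a call that was lost under 8 of 9 alternatives and without any 1 of the 9 libraries (0.25 to 0.49). The remaining tested members, miR-150-3p at 0.05 ± 0.56 and miR-342-5p at -0.57 ± 0.49, did not pass. Both were chosen after their values were seen. So in the hairpins of miR-142-5p, miR-150-5p and miR-342-3p the other arm did not pass. Summed over the 8 markers in the table, the level was 4148 to 5245 CPM on day 7, 1972 to 2289 on day 3 and 1797 to 2118 on day 14, most of it miR-142-5p, and none of the 8 was at 0 in all the libraries. The part of blood cells in the other changes was not tested.

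Red blood cell miRNAs did not follow. Of 4 tested none passed, where 30.2% of all miRNAs tested did. The values were 0.27 ± 0.28 for miR-486, 0.25 ± 0.27 for miR-144-5p, -0.14 ± 0.27 for miR-144-3p and -0.02 ± 0.28 for miR-451-5p. Their summed level was 2298 to 3593 CPM on day 7, 2061 to 3542 on day 3 and 1676 to 3733 on day 14, with wide and overlapping ranges on each day.

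Both arms of the endothelial miRNA miR-126a, which promotes vessel integrity, fell, where 7.62% of all miRNAs tested did. miR-126a-5p stood at 18879.9, 20083 and 18890.3 CPM in the 3 day 7 libraries, at 26301, 20928 and 23042 on day 3 and at 22159.6, 23292 and 23169.5 on day 14. miR-126a-3p stood at 5688, 5859.8 and 5485 CPM in the 3 day 7 libraries, at 8516, 6590.0 and 6943 on day 3 and at 7712, 8106 and 7806 on day 14. The groups did not overlap, but the margin to day 3 replicate 2 was small in both arms. The changes were -0.26 ± 0.08 for miR-126a-5p and -0.42 ± 0.14 for miR-126a-3p, and each call was lost without day 3 replicate 1 (-0.22 and -0.36), day 7 replicate 1 (-0.25 and -0.42) or day 7 replicate 3 (-0.25 and -0.40). The summed level of the 2 endothelial markers was 24375 to 25943 CPM on day 7, 27518 to 34816 on day 3 and 29871 to 31398 on day 14, and neither was at 0. Of 7 tested stellate and smooth muscle miRNAs, only miR-145-5p passed, where 30.2% of all miRNAs tested did. In that list miR-199a-5p was at 0.36 ± 0.15 and miR-143-5p at -0.26 ± 0.19. The list's summed level was 37089 to 43600.1 CPM on day 7, 40373 to 42279 on day 3 and 43394 to 45134 on day 14. The day 7 range overlapped those of both other days. Its median was -0.14. With DESeq2's size factors 2 of its members were lower. The part of these cell types in the other changes was not tested.

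Markers of tissues that could have been cut with the liver did not pass the test, where 30.2% of all miRNAs tested did. Of 14 muscle miRNAs in the table, 9 had 0 counts in all 9 libraries, including both arms of miR-1, miR-206 and miR-208a, and the list summed to 25.8 to 39.3 CPM on day 7, 21.7 to 33.1 on day 3 and 18.5 to 36 on day 14. Of its 2 tested members miR-133a-3p was at 0.89 ± 0.48 and miR-499-5p at 0.20 ± 0.23. Of 6 pancreas miRNAs, 3 had 0 counts, and the list summed to 225 to 341 CPM on day 7, 311 to 355 on day 3 and 203 to 299 on day 14. Nearly all of this was miR-375-3p, the 1 member tested, at -0.12 ± 0.19; miR-216a-5p and miR-217-5p, the pancreatic acinar markers, were near 0.

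The miR-30 family, abundant in many epithelia, had 6 of 11 tested members higher and 0 lower, against 22.6% and 7.62% of all miRNAs tested. Its median was 0.39, against 0.075 over all tested. miR-30d-5p stood at 17586, 15810.3 and 18127 CPM in the 3 day 7 libraries, at 5936, 9793 and 7426 on day 3 and at 6552, 8049.5 and 7659 on day 14. miR-30b-5p stood at 6079.8, 5678 and 6147 CPM in the 3 day 7 libraries, at 3215, 3159.7 and 3029 on day 3 and at 3064, 3181 and 3288 on day 14. miR-30c-5p stood at 8024, 7347 and 7674 CPM in the 3 day 7 libraries, at 4367, 4826 and 3942 on day 3 and at 4578, 4608 and 4716 on day 14. Replicates of miR-30b-5p and miR-30c-5p were tight in all the groups, and the day 7 libraries lay far outside the range of the others. The rises were 1.18 ± 0.13, 0.92 ± 0.09 and 0.77 ± 0.09. miR-30e-5p rose by 0.39 ± 0.10, and the top of its range on days 3 and 14 (9714 to 13018 CPM) nearly met the lowest day 7 value. Its call was lost under 4 of 9 alternatives, among them DESeq2's size factors (0.24), and without any 1 of the day 14 libraries (0.24 for each). The scarcer arms miR-30a-3p (0.41 ± 0.15) and miR-30c-1-3p (0.65 ± 0.21) were also called. The first call was lost under 8 of 9 alternatives and the second under 4 of 9. The first was also lost without any 1 library but day 3 replicate 3. The second was lost without day 3 replicate 1, day 7 replicate 2 or 3, or any 1 of the day 14 libraries. With each of the 9 libraries left out they stood at 0.22 to 0.43 and 0.46 to 0.70. With DESeq2's size factors 3 members were higher and 1 lower, where 58 and 53 of all 328 were. miR-30b-3p, the lower one, was at -0.49 ± 0.19 in the TMM fit (edgeR adjusted p = 0.0514).

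The let-7 family, which restrains proliferation, was counted by arm. Of 9 guide strands only let-7i-5p passed, against 30.2% of all miRNAs tested. It was at -0.31 ± 0.10, and did not pass without day 7 replicate 1 (-0.22). The guides let-7d-5p and let-7e-5p were at 0.20 ± 0.10 and 0.15 ± 0.12. With DESeq2's size factors 2 guide strands were lower. Of 11 passenger strands 6 rose and 0 fell. let-7a-1-3p and let-7c-2-3p are 1 product under both names, and counted once the list had 5 of 10 higher, against 22.6% of all miRNAs tested, and a median of 0.78. The call for let-7f-2-3p (0.78 ± 0.22) was lost after thinning to one depth (0.56) and without day 14 replicate 3 (0.58). let-7a-1-3p stood at 138, 133 and 142 CPM in the 3 day 7 libraries, at 45.3, 74.8 and 68.6 on day 3 and at 57.5, 65.7 and 66.8 on day 14. let-7a-1-3p rose by 1.12 ± 0.17, with no overlap between day 7 and the other 6 libraries. miR-98-3p stood at 16.9, 16 and 14.5 CPM in the 3 day 7 libraries, at 4.24, 6.99 and 4.90 on day 3 and at 6.82, 8.01 and 5.54 on day 14. Its day 7 libraries were the 3 highest. miR-98-3p rose by 1.38 ± 0.26 and let-7e-3p, at 5.88, 7.09 and 5.97 CPM against 1.32 to 3.20, by 1.47 ± 0.27. Summed with that product counted once, passenger strands were at 748 to 798 CPM on day 7, 442 to 512 on day 3 and 476 to 539 on day 14, and guide strands at 43288 to 45399.6, 42959 to 47173 and 43467 to 47096 in the same order.

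Members of 1 seed family did not always move together. miR-92a-3p and miR-92b-3p carry the seed of miR-25-3p. miR-92a-3p stood at 9326, 9536 and 9584 CPM in the 3 day 7 libraries, at 4536, 6404 and 5604 on day 3 and at 5085, 5899.8 and 6171 on day 14. All day 7 libraries lay above the other 6. miR-92a-3p rose by 0.76 ± 0.14 and miR-92b-3p, at 9.47, 14.2 and 11.1 CPM on day 7 against 1.58 to 3.96, by 2.0 ± 0.24. miR-25-3p and miR-363-3p (-0.59 ± 0.22) were lower; the call for miR-363-3p was lost without day 3 replicate 1 (-0.49), day 7 replicate 2 (-0.44) or 3 (-0.55). These are the 2 higher and 2 lower of 18 tested miRNAs from the miR-17/92 cluster and related clusters, with a median of 0.05 (-0.09 with DESeq2's size factors). Of all miRNAs tested 22.6% were higher and 7.62% lower. In the miR-125 seed family, miR-125a-5p rose by 0.85 ± 0.18 and miR-351-5p by 1.35 ± 0.17 while miR-125b-5p was lower. miR-125a-5p stood at 2016, 2167 and 2038 CPM in the 3 day 7 libraries, at 708, 1615 and 1138 on day 3 and at 954, 1449 and 1048 on day 14. The day 7 libraries of miR-125a-5p were close to one another, and days 3 and 14 spread over a factor of more than 2. In the list of the miR-99/100 and miR-125 families, 2 of 10 tested were higher, the other being miR-125b-2-3p (1.12 ± 0.14), and 2 lower (3 with DESeq2's size factors).

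Lists tied to fibrosis and inflammation had 4 calls among 13 tested members, a share near the 30.2% of all miRNAs tested. Of 5 tested miR-29 members, which repress collagens, 2 rose: miR-29a-5p by 0.84 ± 0.18 and miR-29c-3p by 0.50 ± 0.16. The call for miR-29c-3p was lost under 7 of 9 alternatives, among them DESeq2's size factors (0.35). It was also lost without day 7 replicate 1 (0.47) or any 1 of the day 14 libraries (0.34 to 0.35). miR-29a-3p, the abundant guide, was at 0.24 ± 0.17 and miR-29c-5p at 0.40 ± 0.20, and neither passed. In the inflammation-linked list 1 of 8 tested rose and 1 fell. miR-146a-5p stood at 478, 381 and 361 CPM in the 3 day 7 libraries, at 221, 193 and 231 on day 3 and at 205, 177 and 161 on day 14. Day 7 did not overlap the rest. miR-146a-5p, which damps NF-kB signalling, rose by 1.04 ± 0.18. miR-21-5p stood at 49858, 44538 and 66116 CPM in the 3 day 7 libraries, at 67130.4, 56023 and 69263 on day 3 and at 84083, 71394 and 83284 on day 14. miR-21-5p was called lower, at -0.42 ± 0.16 (edgeR adjusted p = 0.0499), though day 7 replicate 3 lay within the day 3 range, and the call was lost without day 3 replicate 1 (-0.40) or 3 (-0.39) or day 7 replicate 1 (-0.37) or 2 (-0.30). miR-146b-5p (0.49 ± 0.23) and miR-155-5p (0.31 ± 0.22) did not pass.

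Lists tied to p53, sterol and hypoxia responses had no call in the TMM fit, where 30.2% of all miRNAs tested were called. They had only 4, 5 and 2 tested members. Among the 4 tested of miR-34 and miR-215, miR-34a-5p, a p53 target, was at 28.7, 27.4 and 30.4 CPM on day 7, 24.8, 19.6 and 24 on day 3 and 10.6, 15.5 and 18 on day 14. Its day 14 values were the lowest, and the change was 0.65 ± 0.26 (edgeR adjusted p = 0.055). The other 3 were miR-34c-5p at -0.15 ± 0.23, miR-34c-3p at 0.66 ± 0.69 and miR-34b-5p at -0.08 ± 0.43. In the sterol-linked list of 5, miR-33-5p, which lies within Srebf2 and represses cholesterol export, was at -0.21 ± 0.15, miR-182 at -0.19 ± 0.18, miR-183-5p at -0.24 ± 0.37 and miR-96-5p at -0.40 ± 0.29; 1 member was lower with DESeq2's size factors. The hypoxia-linked arms miR-210-3p and miR-210-5p were at -0.08 ± 0.13 and 0.21 ± 0.22. miR-331-3p was at 0.08 ± 0.24. Of 12 tested miR-15/16 relatives miR-322-3p alone passed, against the same 30.2%. In that list miR-15b-5p was at -0.41 ± 0.16 and miR-16-5p at -0.32 ± 0.14, and 2 more members were lower with DESeq2's size factors. Of 9 tested miR-23/24/27 members miR-23a-3p alone passed, again against 30.2%, and rose by 0.37 ± 0.10. Its call was lost under 3 of 9 alternatives, among them DESeq2's size factors (0.22). It was also lost without day 3 replicate 2 (0.25) or any 1 of the day 14 libraries (0.19 to 0.24). In the same list miR-24-3p was at -0.19 ± 0.14, miR-24-2-5p at 0.16 ± 0.15 and miR-27a-3p at 0.10 ± 0.10.

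Few miRNAs of the imprinted Dlk1-Dio3 cluster, which is active mainly in the embryo and brain, were abundant enough to be tested. Of 79 names of the cluster in the table, 28 had 0 counts in all 9 libraries and 10 were tested. Of the 10 tested, 3 were called lower and 0 higher, against 7.62% and 22.6% of all miRNAs tested. miR-411-5p stood at 13.8, 11 and 9.09 CPM in the 3 day 7 libraries, at 46, 35.2 and 61.4 on day 3 and at 7.91, 19.8 and 20.6 on day 14. miR-127-3p stood at 9.47, 14.6 and 8.81 CPM in the 3 day 7 libraries, at 30.1, 56.8 and 26.8 on day 3 and at 9.0, 33.4 and 24.6 on day 14. In both, the day 7 libraries lay below all 3 of day 3 and overlapped those of day 14. The changes were -1.29 ± 0.44 and -1.40 ± 0.43, and miR-541-5p was at -1.10 ± 0.43. miR-411-5p was not called without day 3 replicate 3 (-1.17), day 7 replicate 2 (-1.27) or 3 (-1.16), miR-127-3p without day 7 replicate 1 (-1.30) or 3 (-1.26), and miR-541-5p without day 3 replicate 1 (-1.07) or 3 (-1.04), day 7 replicate 1 (-1.22), 2 (-0.97) or 3 (-1.12), or day 14 replicate 2 (-1.13). The cluster's summed level was 157 to 223 CPM on day 3, 42.6 to 79.8 on day 7 and 34.4 to 84.6 on day 14.

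**Figure D3:**
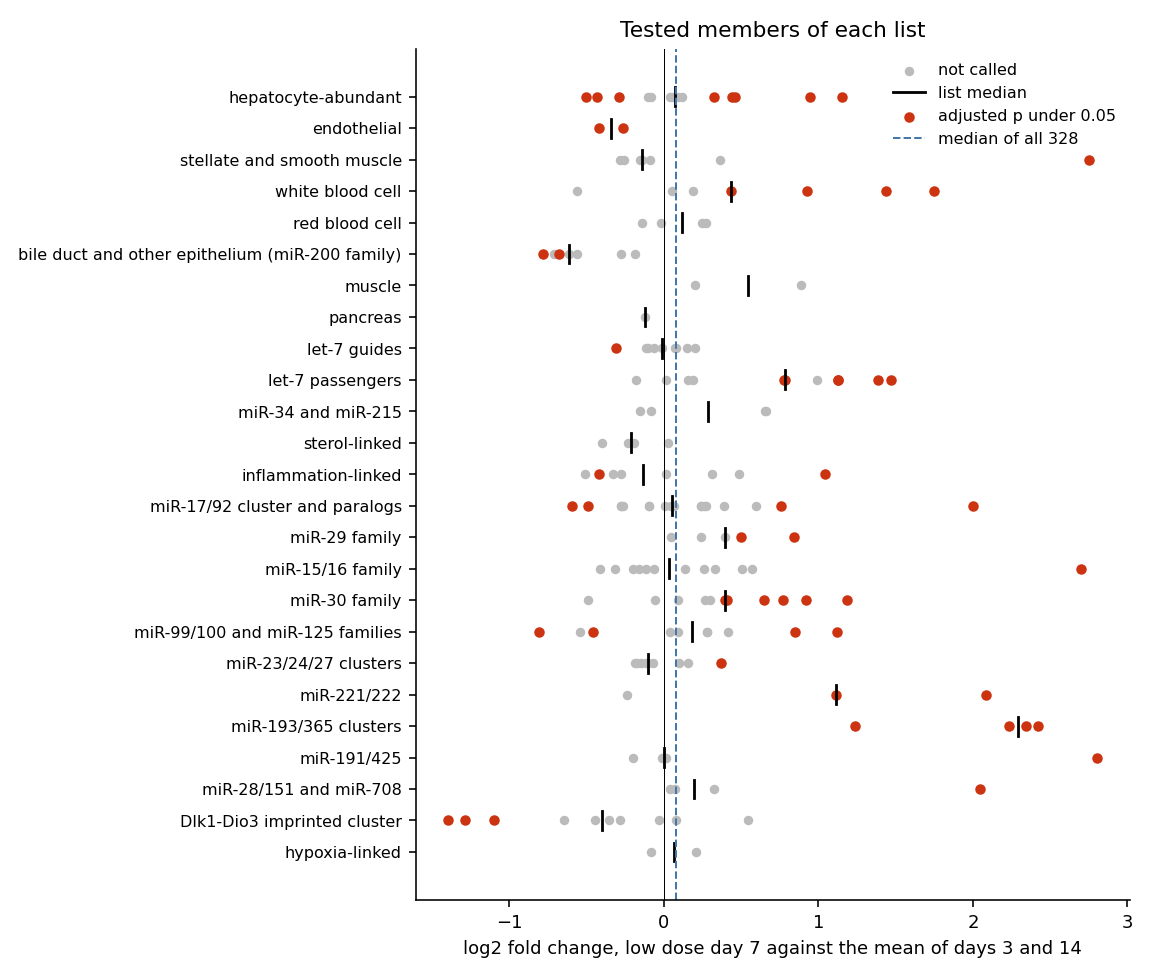
Log2 fold change of low dose day 7 against the mean of days 3 and 14 for each tested member of 25 lists, 1 row a list; red points passed an adjusted p of 0.05, black ticks are list medians and the dashed line is the median of all 328. All 4 members of the miR-193 and miR-365 clusters lie above 1, and the 7 tested miR-200 members lie below 0.

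The arms of single hairpins were also compared. Of 96 hairpins with both arms tested, 42 had 1 arm called and 10 had both, where 30.2% of all tested miRNAs were called; an arm that was not called is not shown to be unchanged. Of the 10, 8 rose in both arms (miR-148a, miR-148b, miR-193a, miR-22, miR-26b, miR-339, miR-340 and miR-423) and 2 fell in both (miR-126a and miR-3559). None had arms called in opposite directions in the TMM fit, against 3 with DESeq2's size factors. The call for miR-148a-3p was lost under 8 of 9 alternatives and without any 1 of the 9 libraries. That for miR-148b-3p (0.41 ± 0.12) was lost under 7 of 9 and without 5 single libraries. That for miR-340-5p (0.50 ± 0.14) was lost under 4 of 9 and without 3 single libraries. All 3 were lost with DESeq2's size factors. Without some single libraries, calls of miR-193a-5p, miR-3559-3p and both arms of miR-126a were lost too. miR-22 showed the widest gap between called arms, with 3.24 for the 5p and 0.44 for the 3p product. miR-339-3p rose by 1.78 ± 0.12 and miR-339-5p by 1.07 ± 0.16, and the arms of miR-26b rose by 0.58 ± 0.12 (5p) and 0.64 ± 0.14 (3p).

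Day 7 against day 3 alone and against day 14 alone share the day 7 libraries. Against day 3, 90 miRNAs passed (27.4%), 64 higher (19.5%) and 26 lower (7.93%). Against day 14, 92 passed (28.0%), 73 higher (22.3%) and 19 lower (5.79%). DESeq2's size factors put 56 higher and 51 lower against day 3, and 58 and 43 against day 14. The lower count against day 3 was 10 without day 3 replicate 1, 14 without day 7 replicate 1 and 48 without day 3 replicate 2. Against day 14 the higher count was 44 without day 14 replicate 1 and 42 without day 14 replicate 3. The lower count there was 7 without day 7 replicate 1, 12 without day 7 replicate 2 or 3, 29 without day 14 replicate 1, 37 without day 14 replicate 2 and 31 without day 14 replicate 3. miR-22-5p was at 3.31 ± 0.25 against day 3 and 3.17 ± 0.25 against day 14, miR-191a-5p at 2.63 ± 0.19 and 2.98 ± 0.19, and miR-128-3p at 2.73 ± 0.34 and 3.14 ± 0.35. miR-145-5p led the rises against day 3 with them (2.82 ± 0.24) and miR-322-3p those against day 14 (2.81 ± 0.20). The falls differed more. miR-411-5p was at -2.07 ± 0.48 against day 3 and -0.51 ± 0.50 against day 14, miR-127-3p at -1.78 ± 0.47 and -1.01 ± 0.48, and miR-136-3p at -1.55 ± 0.50 and 0.65 ± 0.56, so these 3 passed against day 3 and not against day 14. miR-200b-3p was at -0.68 ± 0.23 and -0.89 ± 0.23, miR-200a-3p at -0.56 ± 0.20 and -0.79 ± 0.20, and miR-30b-3p at -0.17 ± 0.22 and -0.81 ± 0.22. miR-99a-5p was lower against each, at -0.94 ± 0.21 and -0.68 ± 0.21.

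Days 14 and 3 differed in 2 of 328 miRNAs (0.61%), both lower on day 14 and both arms of the imprinted miR-136: miR-136-3p at -2.20 ± 0.53 and miR-136-5p at -2.16 ± 0.52 (edgeR adjusted p = 0.0462 for each); the second was chosen after its values were seen. miR-136-3p stood at 12.5, 7.09 and 5.11 CPM in the 3 day 7 libraries, at 27.9, 15.1 and 29.6 on day 3 and at 3.55, 5.61 and 6.60 on day 14. Its day 3 libraries were the 3 highest. In all, 27 miRNAs had an unadjusted p under 0.05. No miRNA passed without day 3 replicate 1 or 3 or without any 1 of the day 14 libraries, and 3 passed without day 3 replicate 2.

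The levels of low dose day 7 were set beside those of the other doses, on all days. Of its 74 higher miRNAs, 63 had all 3 day 7 libraries above all 8 vehicle libraries, which held for 21.0% of all tested. Above all 18 libraries of the middle and high doses lay 20 of the 74, against 11% of all tested, while 52 overlapped that range and 2 lay below it. Of all 328 tested, 290 overlapped that range and 2 lay below it. miR-22-5p belonged to the overlapping ones, with vehicle libraries from 4.68 to 19.3 CPM with a median of 11.5 and the middle and high doses from 113 to 279 CPM with a median of 215. Below the range were miR-28-3p, which ran from 2685 to 3748 CPM with a median of 3217 at the middle and high doses, and miR-148a-5p. Of the 25 lower miRNAs, 19 lay below all vehicle libraries, against 26 of all 328 tested (7.93%). All 25 overlapped the range of the middle and high doses, against 290 of all 328 tested.

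The 20 that exceeded every middle and high dose library include 3 of the white blood cell miRNAs, miR-142-5p, miR-150-5p and miR-342-3p, and miR-146a-5p. miR-142-5p ran from 1262 to 2232 CPM with a median of 1679.7 in the 18 libraries, below each of the 3 low dose day 7 values. miR-150-5p ran from 290.0 to 527 CPM with a median of 404. miR-193a-3p, at 3538 to 4411 CPM on low dose day 7, ran from 1203 to 2037 CPM with a median of 1532. miR-365-3p, of the same clusters, ran from 82.5 to 170.3 CPM with a median of 126, and miR-145-5p from 297 to 472 CPM with a median of 362. Also in this set were miR-30c-5p (from 4711 to 6798 CPM with a median of 5822), miR-802-5p (from 977 to 1873 CPM with a median of 1371) and the abundant miR-26a-5p, which rose by 0.74 ± 0.10. The remaining ones were miR-148b-5p, miR-186-5p, miR-23a-3p, miR-29a-5p, miR-330-5p, miR-335, miR-339-3p, miR-374-5p, miR-872-3p and miR-98-3p. The call for miR-335 (0.47 ± 0.16) was lost under 8 of 9 alternatives and without day 3 replicate 2 or 3, day 7 replicate 1 or any 1 of the day 14 libraries (0.25 to 0.58 over all 9).

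**Figure D4:**
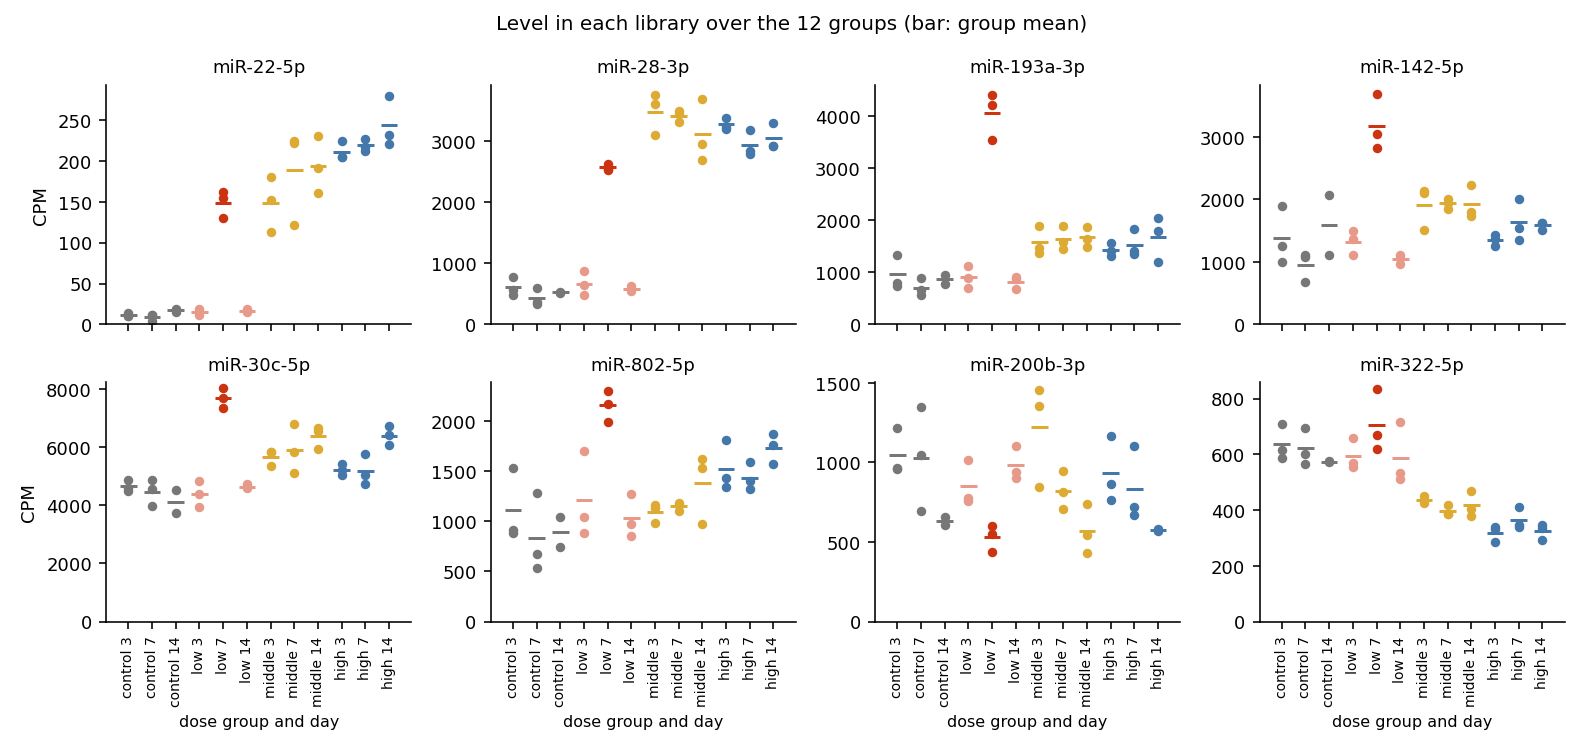
CPM of every library (points) and group mean (bars) of 8 miRNAs over the 12 groups, each named by dose and day, with low dose day 7 in dark red and the other low dose groups in pale red. miR-22-5p and miR-28-3p on day 7 stand near or below the middle and high doses, miR-193a-3p, miR-142-5p, miR-30c-5p and miR-802-5p stand above every other library, miR-200b-3p lies below every vehicle library and within the middle and high dose range, and miR-322-5p overlaps the vehicle and other low dose libraries.

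The same contrast of days at the other doses gave few calls. In vehicle rats 29 of 328 passed (8.84%), 15 higher (4.57%) and 14 lower (4.27%), at the middle dose 1 (0.305%) and at the high dose 0 (0.0%, edgeR), where 7 had an unadjusted p under 0.05 and DESeq2 also called 0. The vehicle calls rested on few libraries: 0 were left without day 7 replicate 2 or 3, 2 without day 14 replicate 1, 6 without day 3 replicate 3 and 12 without day 14 replicate 2, but 86 (31 higher, 55 lower) without day 7 replicate 1; the lower count was 25 without day 3 replicate 2. Of the calls left, 2 were higher and 4 lower without day 3 replicate 3, both were higher without day 14 replicate 1, and 2 were higher and 10 lower without day 14 replicate 2. Several vehicle changes went against the low dose ones. miR-145-5p was lower on day 7 in vehicle rats, at -0.92 ± 0.22, and miR-350 at -0.79 ± 0.25, against rises of 2.75 ± 0.19 and 0.97 ± 0.21 at the low dose. miR-411-5p was higher in vehicle rats, at 1.48 ± 0.42, and miR-181a-2-3p at 0.77 ± 0.17. The other named vehicle changes were miR-598-3p at 0.97 ± 0.27, miR-455-5p at 0.82 ± 0.22, miR-96-5p at -0.99 ± 0.32 and miR-182 at -0.78 ± 0.19; at the low dose none of these 4 passed, with miR-598-3p at -0.68 ± 0.27 and miR-455-5p at -0.46 ± 0.22. At the middle dose the 1 call was miR-455-3p, at 1.39 ± 0.31, against 0.62 ± 0.31 at the low dose; it was lost without day 3 replicate 1 or 3, day 7 replicate 3 or day 14 replicate 1 or 2 of that dose, with 0 calls left. The smallest p values at the high dose were those of miR-190a-3p (-1.17 ± 0.37), miR-210-5p (-0.73 ± 0.27) and miR-421-3p (-0.35 ± 0.14), against 0.14 ± 0.34, 0.21 ± 0.22 and 0.65 ± 0.13 at the low dose.

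Whether the contrast of days itself differed between doses was tested in the same fit. The low dose contrast minus the vehicle contrast passed for 123 miRNAs (37.5%), with 76 higher (23.2%) and 47 lower (14.3%). Minus the middle dose contrast it passed for 67 (20.4%), with 52 higher (15.9%) and 15 lower (4.57%), and minus the high dose contrast for 71 (21.6%), with 62 higher (18.9%) and 9 lower (2.74%). DESeq2's size factors gave 67 higher and 63 lower for the first difference, 41 and 24 for the second and 49 and 29 for the third. Against the middle dose the lower count was 5 without low dose day 3 replicate 1 or day 7 replicate 1, 24 without low dose day 14 replicate 1, middle dose day 7 replicate 1 or middle dose day 14 replicate 1, 25 without middle dose day 3 replicate 1, 28 without low dose day 14 replicate 2 and 29 without middle dose day 14 replicate 2. Against the high dose it was 3 without low dose day 7 replicate 1, 4 without low dose day 3 replicate 1, low dose day 7 replicate 3 or high dose day 3 replicate 2, and 5 without high dose day 7 replicate 2. It was 20 without high dose day 7 replicate 3 or day 14 replicate 2, 21 without low dose day 14 replicate 1, 24 without high dose day 3 replicate 1, 26 without low dose day 3 replicate 2, 29 without low dose day 14 replicate 2 or 3, and 30 without high dose day 14 replicate 1. The 3 differences share the low dose libraries. miR-22-5p, at 3.24 at the low dose, was at -0.56 ± 0.25 in vehicle rats, 0.15 ± 0.19 with the middle dose and -0.05 ± 0.19 with the high dose. The differences for miR-22-5p were 3.80 ± 0.32, 3.08 ± 0.28 and 3.29 ± 0.28. miR-191a-5p differed by 3.28 ± 0.22 from vehicle, 2.86 ± 0.22 from the middle and 3.01 ± 0.22 from the high dose. Among the falls, miR-200b-3p differed by -0.76 ± 0.28 from the middle and -0.97 ± 0.28 from the high dose, and miR-6329 by -0.84 ± 0.26 and -0.78 ± 0.26.

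**Figure D5:**
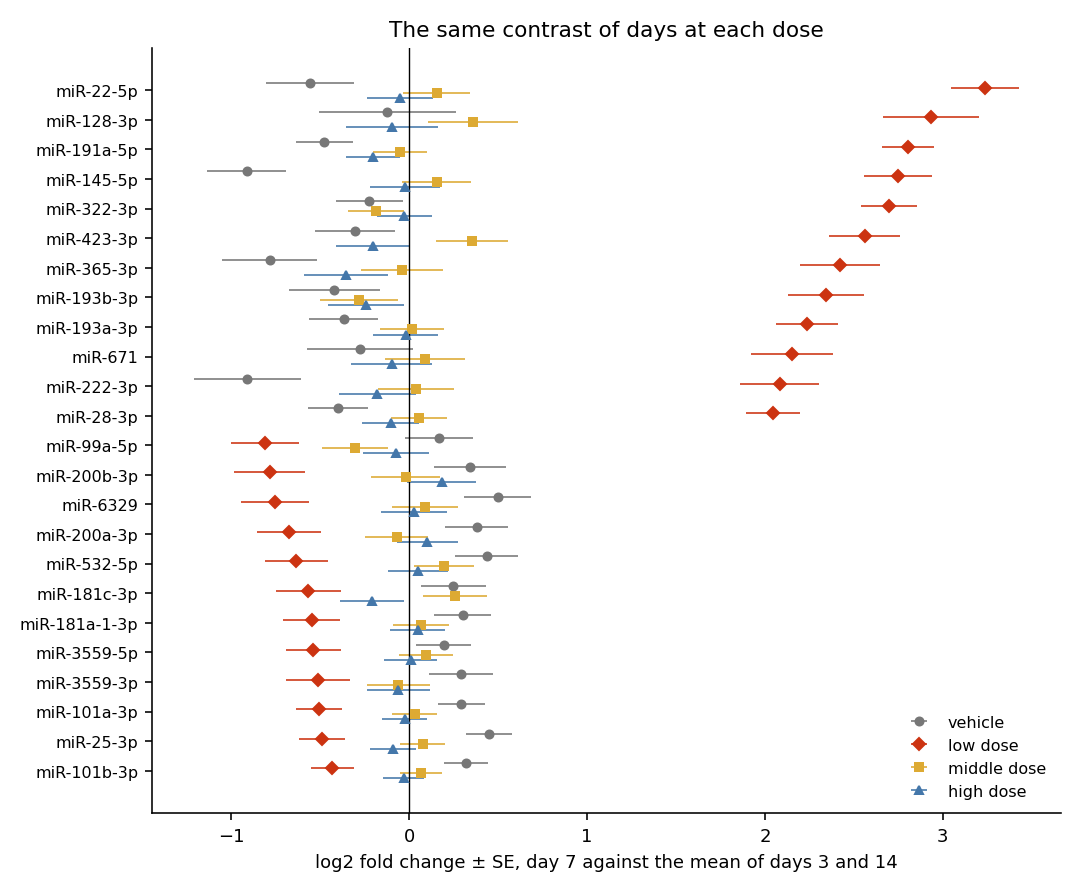
Log2 fold change ± SE of day 7 against the mean of days 3 and 14 for the 24 named miRNAs at each dose. The low dose values of the 12 rises lie between 2.05 and 3.24 and those at the middle and high doses between -0.36 and 0.36, while the vehicle values of the rises are below 0.

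Features of the sequences were compared between the called and the other miRNAs as a description, over the 292 with a RefSeq sequence. The median GC content was 45.5% among the 67 higher miRNAs, 45.5% among the 21 lower and 47.8% among the 204 not called, and the median length was 22 bases in each. Across these miRNAs, which come from the same libraries and are not independent, GC content and log2 fold change had a Pearson r of 0.054 and a Spearman rho of 0.032. Of the higher miRNAs 58.2% came from the 3p arm and 31.3% ended in C, against 44.6% and 15.7% of those not called. Of the lower, 52.4% came from the 3p arm and 14.3% ended in C. The GC quartiles of the 3 classes overlapped. The called miRNAs were also more abundant, with median levels of 82.1 CPM (higher) and 307 CPM (lower) against 29.8 CPM.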

How the data were processed

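Small RNA libraries (TruSeq Small RNA kits, from total RNA of rat liver) gave 35 samples in 12 groups, per the labels' protocols. The authors deposited 1 table of raw read counts per miRNA, and 2 middle dose day 14 samples have counts from 2 runs, which were summed. Genome build rn6 is named in the submitters' processing notes; the names and versions of the aligner, counter and miRNA annotation were not given in the sources used here. No sample column of the table was left unused, and every row names a miRNA.

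The contrasts were tested with edgeR 4.0.16 (R 4.3.3) on the counts: filterByExpr over the 12 groups (count of 10, total of 15), TMM, robust quasi-likelihood fit of all groups, and Benjamini-Hochberg adjustment over the 328 miRNAs tested, with a threshold of 0.05. SE is the log2 fold change over the square root of F. CPM is on TMM-scaled library sizes, and principal components used log2 CPM with a prior count of 2. TMM took control day 3 replicate 2 as its reference library. Library totals were 2665943 to 9665416 counts over the series, and counting error alone is small for all but the scarce miRNAs. The steps were tested on simulated counts.

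Alternatives were DESeq2's size factors in edgeR, library size alone, no filter on low counts, a filter of 10 CPM in 3 or more libraries, DESeq2 1.42.0, a replicate block, thinning to 2665943 counts, only the libraries of that dose, each library left out, and TMM averaged over reference libraries, the last chosen after seeing the data.

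Named are the 12 largest changes each way that passed the threshold, averaged at least 10 CPM in the 9 libraries and had all 3 day 7 libraries beyond the other 6; the 4 largest each way at 10 CPM or more in every other comparison (the 3 smallest p where none passed); up to 4 members of each list by p; a fixed set of liver and injury miRNAs (miR-331-3p, both arms of miR-22, miR-21-5p, miR-34a-5p, miR-122-5p and miR-192-5p); and arms of a hairpin called in opposite directions (there were 0). Named outside this rule, after their values were seen, were miR-136-5p, miR-142-3p, miR-148a-3p, miR-148b-3p, miR-148b-5p, miR-150-3p, miR-181a-5p, miR-181b-1-3p, miR-181b-2-3p, miR-181b-5p, miR-186-5p, miR-194-3p, miR-26a-5p, miR-30a-3p, miR-30c-1-3p, miR-330-5p, miR-335, miR-339-3p, miR-339-5p, miR-340-5p, miR-342-5p, miR-351-5p, miR-374-5p, miR-423-5p, miR-664-3p, miR-872-3p and let-7f-2-3p. The members and lists were chosen with earlier results of these data known. A replicate block was tried because labels share replicate numbers; its check is given with the limits.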

Additional observations from a re-analysis of the deposited data

Results flagged for a closer look

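The contrast of day 7 with days 3 and 14 differed between the low dose and each of the other doses, by a test of the difference itself in edgeR's quasi-likelihood fit over all 35 libraries; the 3 differences share the low dose libraries. Against the vehicle contrast 123 miRNAs differed, 76 with a higher and 47 with a lower low dose value, and without single libraries 98 to 147 did. On the log2 scale the largest differences upward among the miRNAs at 10 CPM or more were miR-22-5p (3.80), miR-145-5p (3.66), miR-191a-5p (3.28) and miR-365-3p (3.21). Downward they were miR-411-5p (-2.77), miR-136-3p (-1.82), miR-127-3p (-1.60) and miR-181a-2-3p (-1.29). In the low dose contrast itself miR-136-3p did not pass, at -0.45 ± 0.46 (edgeR adjusted p = 0.516). Several of the miRNAs named here ran the other way in vehicle rats, miR-22-5p (not called there) and miR-181a-2-3p among them, so both contrasts enter the difference. The vehicle contrast had 0 calls without its day 7 replicate 2 or 3. miR-145-5p was at 2.75 ± 0.19 at the low dose and -0.92 ± 0.22 in vehicle rats, and miR-411-5p at -1.29 ± 0.44 and 1.48 ± 0.42.

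Against the middle dose contrast 67 miRNAs differed, 52 upward and 15 downward, and 50 to 72 without single libraries. The largest differences upward were miR-22-5p (3.08), miR-322-3p (2.88), miR-191a-5p (2.86) and miR-193b-3p (2.63), and downward miR-6329 (-0.84), miR-532-5p (-0.83), miR-181c-3p (-0.83) and miR-200b-3p (-0.76). At the middle dose itself miR-322-3p was at -0.19 ± 0.16 and miR-193b-3p at -0.28 ± 0.22, neither past the threshold. Against the high dose contrast 71 differed, 62 upward and 9 downward, and 58 to 77 without single libraries. Here they were miR-22-5p (3.29), miR-128-3p (3.03), miR-191a-5p (3.01) and miR-365-3p (2.78) upward, and miR-200b-3p (-0.97), miR-181a-2-3p (-0.87), miR-6329 (-0.78) and miR-200a-3p (-0.78) downward. At the high dose itself miR-128-3p was at -0.10 ± 0.26 and miR-200b-3p at 0.18 ± 0.19. The 3 low dose day 7 libraries enter every one of these differences, and what sets those libraries apart was not tested.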

How the results depend on the processing

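Results were recomputed under the alternatives named with the methods, one at a time, and without each library in turn; the alternatives keep the contrast of low dose day 7 against days 3 and 14 unless another is named. The number of calls in that contrast stayed within 1.5 times of 99 under each of them, and so did the number higher (74). The number lower (25) was 53 with DESeq2's size factors, 44 with library size alone, 45 with the filter that asks for 10 CPM in 3 libraries, 54 with DESeq2, 45 with TMM averaged over references, 45 after thinning to one depth and 57 with only the low dose libraries, and it ranged from 16 to 50 with single libraries left out. The share of calls that were higher went from 74.7% to between 51.8% and 72.5% under these alternatives, and the cause was not tested. Hairpins with arms called in opposite directions, 0 in the TMM fit, numbered 3 with DESeq2's size factors or DESeq2, 2 with only the low dose libraries, 1 with library size alone, without the low-count filter, with the CPM filter, with averaged TMM or after thinning, and 0 to 2 without single libraries. The 2 calls between low dose days 14 and 3 became 0 with DESeq2's size factors, averaged TMM or no filter, 1 with only the low dose libraries, 3 with library size alone, the CPM filter, DESeq2 or thinning, and 0 to 3 without single libraries. The 29 calls in vehicle rats became 19 without the filter, 44 with DESeq2, 0 with only the vehicle libraries and 0 to 86 without single libraries. The 1 call at the middle dose became 0 without the filter or with only that dose's libraries, and 0 to 2 without single libraries.

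Whether replicate numbers pair the samples cannot be settled with 3 libraries a group. Deviations from the group means were correlated between low dose libraries. Between days 3 and 14, same-numbered libraries were at 0.054 to 0.330 and others at -0.315 to 0.091. In pairs with day 7, same-numbered libraries were at -0.145 to 0.052 and others at -0.156 to 0.188. Not every sample correlated best with its own number. With a replicate block the calls numbered 102 (74 higher, 28 lower) in place of 99, 1 in place of 2 between days 14 and 3, and 0 in place of 1 at the middle dose.

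The lists of this paragraph leave out miR-150-3p and miR-342-5p. The changes of sign all came in miRNAs that were not called. Under other settings than leaving out a library, these were miR-190a-3p (0.14) at -0.0098 and -0.0099; miR-210-5p (0.21) at -0.27; let-7e-5p (0.15) at -0.0004 and -0.0003; miR-27a-3p (0.10) at -0.0538, -0.0008, -0.0044, -0.0279 and -0.0331; miR-425-3p (0.0114) at -0.14, -0.0841, -0.0855, -0.11, -0.035 and -0.12; miR-151-5p (0.0716) at -0.0819, -0.024, -0.0332, -0.0534, -0.0267, -0.0445 and -0.0615; miR-28-5p (0.0394) at -0.11, -0.0552, -0.0624, -0.0844, -0.0582, -0.0919 and -0.0928; miR-331-3p (0.0844) at -0.0661, -0.0164, -0.0193, -0.0398, -0.066, -0.0104, -0.0338 and -0.0423. With single libraries left out, the ranges were miR-190a-3p -0.11 to 0.36, miR-210-5p -0.0478 to 0.29, miR-144-5p -0.0104 to 0.44, miR-144-3p -0.40 to 0.0862, miR-451-5p -0.28 to 0.20, miR-499-5p -0.0459 to 0.27, let-7e-5p -0.0208 to 0.23, miR-34c-3p -0.11 to 1.06, miR-34c-5p -0.31 to 0.0191, miR-34b-5p -0.48 to 0.12, miR-24-2-5p -0.029 to 0.24, miR-27a-3p -0.0733 to 0.13, and miR-425-5p -0.17 to 0.0032, miR-425-3p -0.22 to 0.0471, miR-151-5p -0.11 to 0.10, miR-28-5p -0.13 to 0.0937, miR-331-3p -0.11 to 0.20, miR-142-3p -0.0106 to 0.26. For single miRNAs, 1556 of the values under other settings and 1694 of those without a library kept direction and side of the threshold, 142 and 226 lost a call and 81 and 44 gained one. Depth limits the scarce miRNAs: of 763 names, 328 had counts enough to be tested.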
